A study of Mus musculus with 6 samples.

Results

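Kinesins are motor proteins that step along microtubules by hydrolysing ATP, and their genes form a superfamily grouped by the motor domain. One set of them builds and moves the spindle and cuts the dividing cell in 2; transcripts of that set rise as cells approach mitosis. The others carry vesicles, organelles, signalling proteins and ciliary components, or shorten microtubules at their ends. The kinesins were followed here in CT26, a BALB/c mouse colon carcinoma line whose genotype the labels give as WT. Irinotecan (CPT-11), a prodrug of the topoisomerase I inhibitor SN-38, was given at 10 µM for 24 h to 3 samples, and 3 samples received DMSO, the solvent. The comparison asked which transcripts the drug changed.

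Members were taken from the authors' deposited table by a rule on names alone, set with earlier results of these data known. They are the protein-coding genes whose symbol starts with Kif or Kifc followed by a digit, together with Stard9, a kinesin whose symbol refers to its lipid-binding START domain. The rule found 28 genes among 11604 listed, of which 10832 are protein-coding. Of the 28, 12 are mitotic kinesins (Kif2c, Kif4, Kif11, Kif14, Kif15, Kif18a, Kif18b, Kif20a, Kif20b, Kif22, Kif23 and Kifc1), all those the rule named, and 16 are others. All 28 passed the filter on low counts. A further 15 family members have no row in the table analysed here, among them the neuronal Kif1a, Kif5a and Kif5c and the ciliary Kif17, Kif27 and Kif9. Cenpe, a mitotic kinesin without such a symbol, is left out by the rule and counted below among the spindle and cytokinesis partners.

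Library totals were 17049072 to 17294496 counts with irinotecan and 16052326 to 16649571 with DMSO. Kinesin transcripts took 0.252% to 0.258% of the counts in the irinotecan libraries and 0.224% to 0.231% in the DMSO libraries. Whether the 3 samples sharing a treatment grew as independent cultures is not labelled; every p-value therefore rests on a spread between libraries that could be purely technical. Of 11 colon epithelial markers 3 have a row (Krt18, Krt20 and Cdh17), while the defining genes Epcam, Cdh1 and Krt8 have none. Those 3 summed to 87.3 to 98.6 CPM (counts scaled to a common library size) with irinotecan and 96.5 to 103 CPM with DMSO. Of 8 mesenchymal markers 6 have a row, with a summed level of 4454 to 4959 CPM with irinotecan and 3798 to 4056 CPM with DMSO. By the test described below, 3 of these 6 rose and 0 fell, and of the 3 colon markers 1 rose and 1 fell. Of all genes tested, 11.8% rose and 10.3% fell. The part of such markers in the kinesin values was not tested. Of 4 endothelial markers 0 have a row, of 8 haematopoietic markers 1 and of 4 ciliated cell markers 1, each summed at no more than 4.23 CPM in any library. In bulk RNA, a changed share of cells in one stage of the cycle and a changed amount of RNA per cell cannot be told apart, in either direction.

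The promoters of the mitotic and of the other kinesins were read for 2 short elements. Genes of G2 and mitosis often carry the cell cycle genes homology region, TTTGAA, close to their start, downstream of CCAAT boxes bound by NF-Y. RefSeq promoters (GRCm38.p6, 250 bases before to 50 after the start) were at hand for 24 of the 28 kinesins; Kif20a, Kif5b, Kif13b and Kifc3 have no entry. Both motifs were searched on both strands, so that TTCAAA and ATTGG also count, and no matches overlapped each other in these promoters. The stretches below run from 100 bases before to 20 bases after the start, 5′ to 3′ on the strand of the gene, with both motifs in capitals. They show mitotic kinesins that passed the test of irinotecan against DMSO (Kifc1, Kif18b and Kif20b) and others that did not (Kif11, Kif22 and Kif23), the near-copy Kifc5b, and Kif1c, which changed without either motif.
Kifc1 (chr17:33890614-33890733, minus strand): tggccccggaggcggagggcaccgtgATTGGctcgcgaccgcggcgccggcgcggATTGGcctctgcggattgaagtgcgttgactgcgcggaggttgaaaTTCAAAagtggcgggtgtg
Kifc5b (chr17:26916991-26917110, plus strand): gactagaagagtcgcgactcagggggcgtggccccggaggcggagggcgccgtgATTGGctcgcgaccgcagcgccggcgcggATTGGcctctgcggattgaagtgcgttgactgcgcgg
Kif18b (chr11:102925105-102925224, minus strand): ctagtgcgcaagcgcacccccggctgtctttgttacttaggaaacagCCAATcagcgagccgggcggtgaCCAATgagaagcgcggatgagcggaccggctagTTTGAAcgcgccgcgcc
Kif20b (chr19:34922258-34922377, plus strand): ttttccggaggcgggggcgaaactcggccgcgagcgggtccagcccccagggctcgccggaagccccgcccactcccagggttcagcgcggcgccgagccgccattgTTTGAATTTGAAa
Kif11 (chr19:37376282-37376401, plus strand): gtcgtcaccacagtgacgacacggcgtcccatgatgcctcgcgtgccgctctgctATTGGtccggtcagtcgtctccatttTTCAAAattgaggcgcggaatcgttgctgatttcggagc
Kif22 (chr7:127042401-127042520, minus strand): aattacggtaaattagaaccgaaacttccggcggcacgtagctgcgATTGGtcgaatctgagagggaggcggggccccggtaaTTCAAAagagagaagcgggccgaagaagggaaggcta
Kif23 (chr9:61946780-61946899, minus strand): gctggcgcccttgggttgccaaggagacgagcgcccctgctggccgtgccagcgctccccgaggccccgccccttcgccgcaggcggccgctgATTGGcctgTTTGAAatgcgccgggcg
Kif1c (chr11:70700448-70700567, plus strand): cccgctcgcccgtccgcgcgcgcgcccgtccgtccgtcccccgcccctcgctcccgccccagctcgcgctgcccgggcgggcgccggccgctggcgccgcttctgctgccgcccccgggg

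In the 250 bases before the start, TTTGAA was found in 5 of 11 mitotic kinesin promoters and in 0 of 15 promoters of 13 other kinesins, against 16% of all 32851 RefSeq promoters. In the window that also takes the 50 bases after the start, chosen after the positions were seen, it was found in 10 of 11 mitotic promoters, in 1 of 15 others and in 17.9% of all promoters. In Kif18b it lies 4 to 9 bases into the transcript, in Kif23 3 to 8 and in Kifc1 2 to 7, and Kif20b holds it at both 8 to 13 and 14 to 19. In Kif11 and Kif15 it lies 19 to 14 bases before the start. Kif22 holds it at -17 to -12 (minus for bases before the start), and Kif4 at 20 to 25. Not all matches lie so close to the start. The only match of Kif14 lies at -228 to -223, upstream of its CCAAT at -92 to -88, and that of Kif2c at -103 to -98. Kif15 and Kif22 each hold another match, at -234 to -229 and at -215 to -210. Kif18a is the mitotic promoter without a match, and among the others only Kifc5b, the copy of Kifc1, holds one. CCAAT was found in 7 of 11 mitotic promoters, 7 of 15 others and 37.4% of all promoters in the longer window, and the variant TTTAAA in 2 of 11, 0 of 15 and 13.2%. Kif1b enters the CCAAT count with both of its starts, whose windows hold the same boxes. These are matches of letters, and a match does not show that a factor binds there. In the longer window the element was found in 5 of 12 promoters (11 genes) of kinesins that rose with irinotecan. It was found in 6 of 14 promoters (13 genes) of kinesins that did not pass. In the 250 bases before the start these counts were 1 of 12 and 4 of 14.

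**Figure D1:**
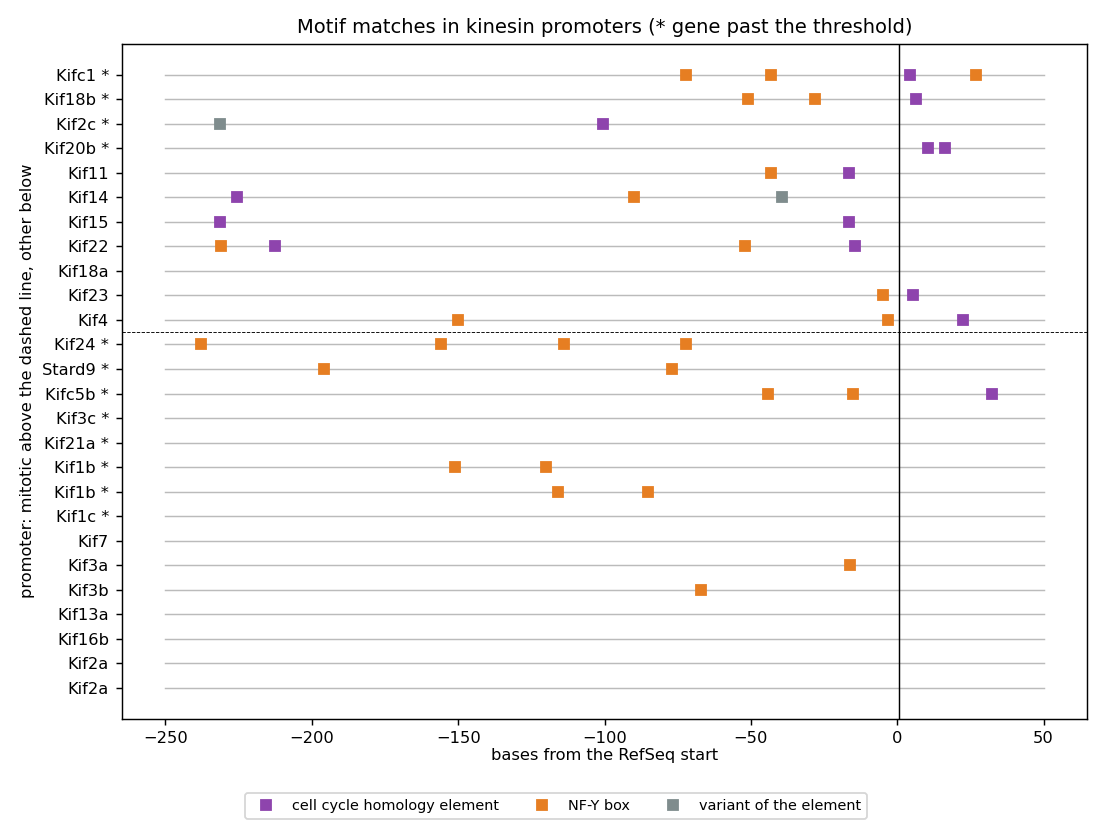
Each row is one RefSeq promoter of a kinesin, from 250 bases before to 50 bases after the start (vertical line), and squares mark matches on either strand: purple for TTTGAA, orange for CCAAT (the NF-Y box), grey for TTTAAA. Purple squares stand in 10 of 11 rows above the dashed line (mitotic) and in 1 of 15 below it (other), against 17.9% of all promoters. The 50 bases after the start were added to the window after the positions were seen. In the 250 bases before the start the counts are 5 of 11 and 0 of 15, against 16%. Stars mark genes that rose with irinotecan.

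With irinotecan 12 of the 28 kinesins rose and 0 fell, by modest amounts. By the same rule, 11.8% of the 11599 genes tested were higher and 10.3% lower (edgeR's quasi-likelihood test, Benjamini-Hochberg adjusted p of at most 0.05 over all genes tested). The mitotic kinesins gave 5 of 12 higher (41.7%) and the others 7 of 16 (43.8%). The others that rose include Kifc5b, the near-copy of the mitotic Kifc1, and reads of this pair may be counted for either gene. The median log2 fold change of irinotecan over DMSO was 0.13 for the mitotic and 0.13 for the other kinesins, against 0.00 over all genes tested, and log2 fold changes were positive in 11 of 12 and 13 of 16. The irinotecan libraries lay above the DMSO libraries without overlap in 8 of 12 mitotic and 7 of 16 other kinesins, against 19.3% of all genes, and below them in 0 and 2, against 17.8%. The difference between the 2 kinds was not tested. No kinesin changed 1.5-fold or more.

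The summed level of the 12 mitotic kinesins was 1260, 1232 and 1235 CPM with irinotecan, against 1086, 1097 and 1093 CPM with DMSO. That of the 16 others was 1257, 1261 and 1315 CPM with irinotecan, against 1170, 1201 and 1218 CPM with DMSO. Both sums were higher in every irinotecan library than in any DMSO library. Averaged over genes on the log2 scale, the mitotic kinesins stood 0.19, 0.16 and 0.17 above their DMSO means in irinotecan replicates 1 to 3, and the others 0.19, 0.10 and 0.17. Without irinotecan replicate 1 the number of mitotic kinesins called higher was 3, and without irinotecan replicate 3 the number of others was 4.

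**Figure D2:**
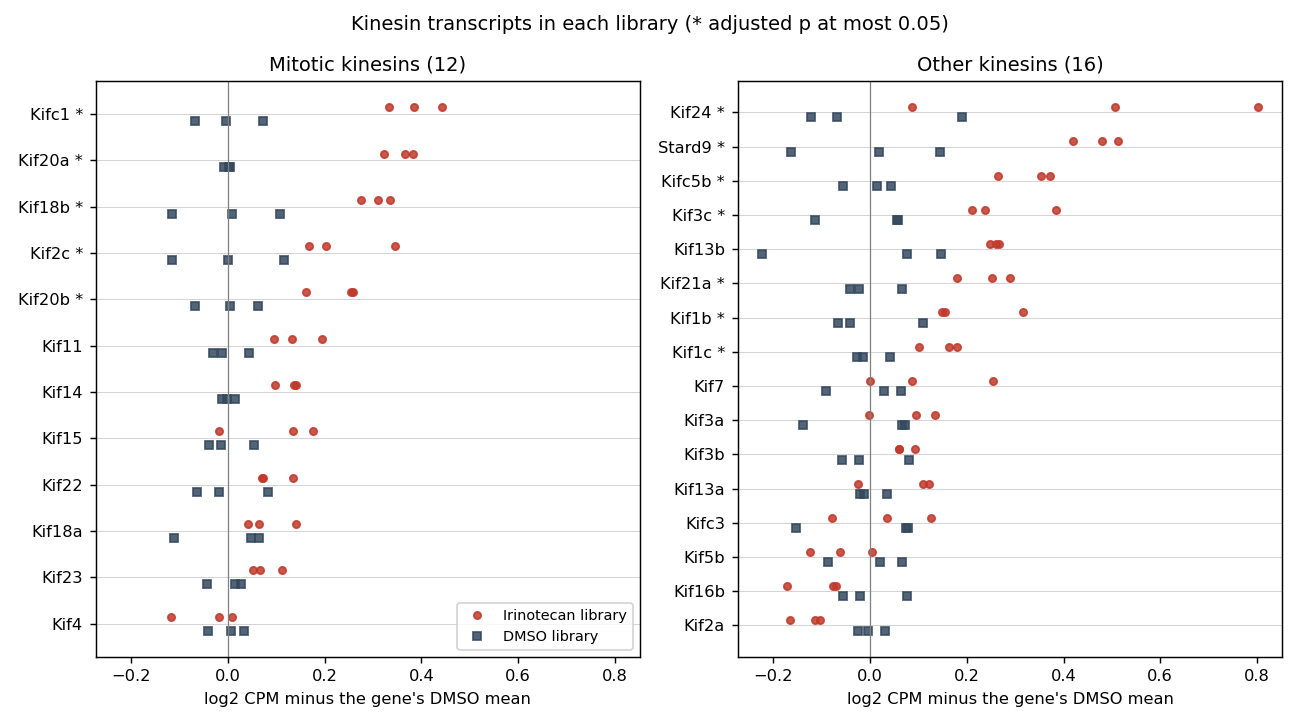
Each point is one library: its log2 CPM minus the mean log2 CPM of the gene in the 3 DMSO libraries, with irinotecan as red circles and DMSO as dark squares, mitotic kinesins on the left and the others on the right. Stars mark the 5 and 7 genes past the threshold; in 11 of these 12 the red points lie wholly to the right of the dark ones, the exception being Kif24.

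Among the kinesins of cytokinesis, Kif20a and Kif20b rose, and Kif23 and Kif14 did not pass. Kif20a (ENSMUSG00000003779, chromosome 18, 34757666 to 34766330, plus strand, GRCm39), also known as MKLP2, moves the chromosomal passenger complex to the central spindle in anaphase. It had 204, 201 and 195 CPM with irinotecan, against 157, 157 and 155 CPM with DMSO. The groups lay far apart relative to their spread, and the log2 fold change was 0.36 ± 0.046 (SE, adjusted p = 9.9e-06), a rise of 28.2%. Kif20a was called under all 13 alternatives of processing. Its gene overlaps Cdc23 on the opposite strand by 2.33 kb, and 31.2% of the 50-base words of its longest transcript also occur in Cdc23 transcripts on one strand or the other. The strandedness of the libraries is not given in the sources used here. Cdc23, a subunit of the anaphase-promoting complex, had a log2 fold change of 0.10 (adjusted p = 0.28), and its part in the Kif20a value was not tested.

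The other members of the kinesin-6 family moved less. Kif20b (chromosome 19, 34899761 to 34953145), a kinesin of cytokinesis that is also known as MPP1, had 78.8, 73.9 and 79.1 CPM with irinotecan, against 66.3, 63.1 and 69 CPM with DMSO. Every irinotecan library was above every DMSO library, and the log2 fold change was 0.22 ± 0.06 (SE, adjusted p = 0.011). The call was lost without DMSO replicate 2 (adjusted p = 0.055) or irinotecan replicate 1 (0.053). Kif23 (chromosome 9, 61823187 to 61854056), which with Racgap1 forms the centralspindlin complex, had 159, 154 and 153 CPM with irinotecan, against 150, 143 and 149 CPM with DMSO. These groups did not overlap either, but the difference of 0.08 (95% interval -0.02 to 0.18) did not pass (adjusted p = 0.28). Kif14, a kinesin-3 motor that recruits citron kinase to the midbody, likewise stood at 55.2 ± 0.9 CPM with irinotecan and 50.6 ± 0.505 CPM with DMSO (SD, n = 3 each) without passing (edgeR adjusted p = 0.16).

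Kifc1 (ENSMUSG00000079553, chromosome 17, 34094633 to 34109635, minus strand), a minus-end-directed motor of the kinesin-14 family that focuses spindle poles and clusters extra centrosomes, had 133, 143 and 138 CPM with irinotecan, against 101, 111 and 105 CPM with DMSO. The log2 fold change of 0.39 ± 0.054 (SE, adjusted p = 2.9e-05) was called under all 13 alternatives. Kifc5b (chromosome 17, 27136065 to 27151557) is its near-copy and had 63.8, 68.9 and 68 CPM with irinotecan, against 54.8, 53.7 and 51.1 CPM with DMSO (log2 fold change 0.33 ± 0.063). In each gene all irinotecan libraries stood above all DMSO libraries. Over their whole RefSeq promoters, with Kifc5b shifted by 28 bases, 239 of 272 bases (87.9%) are the same, and in the printed stretches the 2 inverted CCAAT boxes coincide. In the transcripts, 45.8% of the 50-base words of Kifc1 occur in Kifc5b, so reads of one may have been counted for the other and the genes are uncertain one by one. Kifc5b took 32.5%, 32.5% and 33.1% of the counts of the pair with irinotecan and 35.3%, 32.6% and 32.7% with DMSO. Summed into 1 feature, an alternative chosen after the data were seen, the pair rose by 0.37 ± 0.049 (adjusted p = 1.5e-05). Kifc3, another kinesin-14 motor of apical transport and adherens junctions, was at 18.5 ± 1.31 CPM with irinotecan and 18.2 ± 1.63 CPM with DMSO (SD, n = 3 each), and the sign of its difference of 0.03 turned without DMSO replicate 3 (-0.047) or irinotecan replicate 1 (-0.02).

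Among kinesins that set the length of spindle microtubules, Kif18b and Kif2c rose, and Kif18a and Kif2a did not pass. Kif18b (chromosome 11, 102796355 to 102815950), which trims astral microtubules, had 68.8, 71.7 and 70.4 CPM with irinotecan, against 52.4, 61.2 and 57.1 CPM with DMSO. Its groups did not overlap, and the log2 fold change of 0.30 ± 0.065 (SE, adjusted p = 0.002) held under all 13 alternatives. Kif2c (chromosome 4, 117016836 to 117039836), the centromeric depolymerase MCAK that corrects faulty kinetochore attachments, had 92.7, 81.9 and 84 CPM with irinotecan, against 72.9, 79.1 and 67.3 CPM with DMSO. The lowest irinotecan library was close to the highest DMSO library, and the call (0.24 ± 0.066, adjusted p = 0.014) was lost without DMSO replicate 3 (0.059) or irinotecan replicate 1 (0.11). Kif18a, the kinesin-8 motor that dampens chromosome movement at the metaphase plate, had 61.3, 60.3 and 64.6 CPM with irinotecan, against 61.3, 54.2 and 60.6 CPM with DMSO. The groups overlapped, with a difference of 0.08 (95% interval -0.05 to 0.22). Kif2a (chromosome 13, 107095504 to 107158634), a depolymerase of spindle poles and of interphase microtubules, had 92, 96 and 95.3 CPM with irinotecan, against 105, 101 and 103 CPM with DMSO. It was the lowest of all 28 in log2 fold change and its libraries did not overlap, but at -0.13 ± 0.053 it did not pass (adjusted p = 0.092). Reads of Dimt1, which overlaps Kif2a by 1.23 kb on the opposite strand and had a log2 fold change of -0.18 (adjusted p = 0.062), could count for it; this was not tested.

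Motors that push the spindle poles apart and carry chromosomes gave no call. Kif11 (ENSMUSG00000012443, chromosome 19, 37364851 to 37410307), the tetrameric kinesin-5 also called Eg5 that slides spindle microtubules apart, had 133, 124 and 127 CPM with irinotecan, against 113, 115 and 119 CPM with DMSO. All irinotecan libraries were above all DMSO libraries, and the log2 fold change of 0.14 ± 0.052 (SE) fell just short (adjusted p = 0.055). It passed under 4 of 13 alternatives, among them total counts as the only scaling (0.023) and the analysis without DMSO replicate 3 (0.041), with a range of 0.012 to 0.22. Kif15, which shares the work of Kif11 in spindle assembly, had 84.1, 75.7 and 86.5 CPM with irinotecan, against 74.5, 79.6 and 75.9 CPM with DMSO, and its groups overlapped. The chromokinesin Kif22, also known as Kid, differed by 0.09 (95% interval -0.03 to 0.21). The chromokinesin Kif4 (chromosome X, 99669343 to 99770820), which also limits the central spindle together with Prc1, was the only member of the mitotic 12 with a negative log2 fold change. It had 97.5, 99.3 and 90.9 CPM with irinotecan, against 95.9, 99.2 and 101 CPM with DMSO, at -0.04 ± 0.056 (95% interval -0.16 to 0.07). Its interval does not reach that of Kif20a, which spans 0.26 to 0.45. Cenpe, the mitotic kinesin outside the rule, had a log2 fold change of -0.02 (95% interval -0.13 to 0.10).

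**Figure D3:**
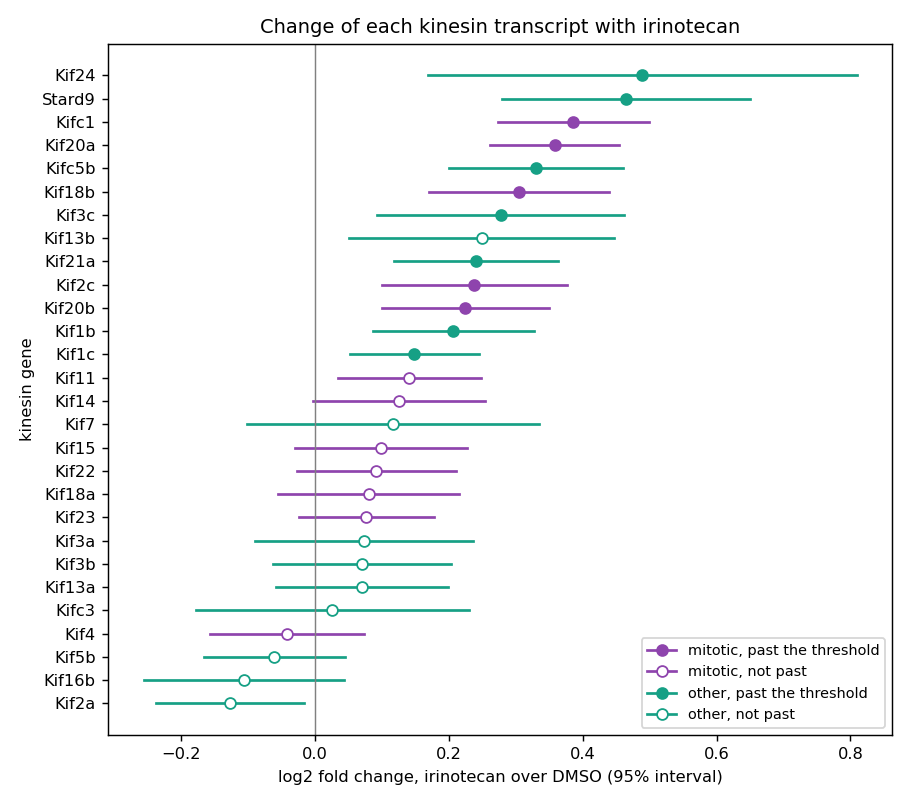
Log2 fold change of irinotecan over DMSO for each of the 28 kinesins, with its 95% interval from the edgeR fit, in order of size; purple marks mitotic and green other kinesins, and filled circles are genes past the threshold. Mitotic and other kinesins are interleaved, from Kif24 at 0.49 to Kif2a at -0.13.

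Among the other kinesins, the largest log2 fold changes belonged to centrosomal proteins at a low level. Stard9 (ENSMUSG00000033705, chromosome 2, 120459602 to 120562376), which in human cells holds the pericentriolar material together during mitosis, had 29.1, 27.9 and 29.8 CPM with irinotecan, against 21.2, 18.7 and 23.1 CPM with DMSO. The groups did not overlap, and the log2 fold change of 0.46 ± 0.089 (SE, adjusted p = 0.00079) was called under all 13 alternatives. Kif24 (chromosome 4, 41390745 to 41464887), a kinesin-13 of the mother centriole that restrains cilium formation, had 15.9, 9.7 and 13 CPM with irinotecan, against 10.4, 8.71 and 8.39 CPM with DMSO. Here irinotecan replicate 2 fell below DMSO replicate 1, and the call (0.49 ± 0.15, adjusted p = 0.028) rested on single libraries. It was lost without DMSO replicate 2 (0.11) or 3 (0.09) and without irinotecan replicate 1 (0.21) or 3 (0.06), and the log2 fold change was 0.31 without irinotecan replicate 1. Both are counted among the others by the rule.

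The kinesin-3 carriers rose in part. Kif1b (chromosome 4, 149260776 to 149392150), a carrier of mitochondria and of synaptic vesicle precursors, had 159, 159 and 178 CPM with irinotecan, against 137, 139 and 154 CPM with DMSO. Kif1c (chromosome 11, 70591374 to 70622790), which moves dense core vesicles and integrins, had 264, 276 and 279 CPM with irinotecan, against 244, 254 and 242 CPM with DMSO. Neither pair of groups overlapped, at log2 fold changes of 0.21 ± 0.058 for Kif1b (SE, adjusted p = 0.014) and 0.15 ± 0.046 for Kif1c (adjusted p = 0.025). Kif1b did not pass once irinotecan replicate 3 (0.088) or DMSO replicate 1 (0.07) or 2 (0.057) was left out. Kif1c did not pass once irinotecan replicate 2 (0.087) or 3 (0.09) or DMSO replicate 1 (0.085) or 3 (0.057) was left out. Kif13b, which transports phosphoinositides and the scaffold Dlg1, had 24.4, 24.1 and 24.3 CPM with irinotecan, against 17.4, 22.5 and 21.4 CPM with DMSO. Its irinotecan libraries were above all DMSO libraries, and the log2 fold change of 0.25 ± 0.095 did not pass (adjusted p = 0.065). It passed under 3 of 13 alternatives, among them total counts as the only scaling (0.039) and the analysis without DMSO replicate 2 (0.039), with a range of 0.023 to 0.31. Without DMSO replicate 1 the log2 fold change was 0.15. Kif13a, a carrier of recycling endosomes and of the mannose 6-phosphate receptor, differed by 0.07 (95% interval -0.06 to 0.20), and Kif16b, a carrier of early endosomes, by -0.11 (95% interval -0.26 to 0.04) although its groups did not overlap.

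Kif21a (chromosome 15, 90817479 to 90934151), a kinesin-4 that restrains microtubule growth at the cell cortex, had 84.1, 80 and 86.2 CPM with irinotecan, against 68.6, 69.4 and 73.8 CPM with DMSO. Its log2 fold change of 0.24 ± 0.059 (SE, adjusted p = 0.0057) held under all 13 alternatives, with no overlap of the groups. Kif7, the ciliary kinesin-4 of Hedgehog signalling, had overlapping groups at 15.3 ± 1.39 CPM with irinotecan and 14.1 ± 0.786 CPM with DMSO (SD, n = 3 each). Of the kinesin-2 family, which drives intraflagellar transport, Kif3c rose, and Kif3a and Kif3b did not pass. Kif3c (chromosome 12, 3415132 to 3456494) had 27.1, 24 and 24.4 CPM with irinotecan, against 21.5, 19.1 and 21.6 CPM with DMSO, or 0.28 ± 0.089 on the log2 scale (adjusted p = 0.029). The call was lost with DESeq2 (0.052), without DMSO replicate 2 (0.13) and without irinotecan replicate 1 (0.15). The lncRNA 1110002L01Rik overlaps Kif3c by 2.62 kb on the opposite strand and shares 38.1% of the words of its transcript, at a log2 fold change of 0.04. Kif3a and Kif3b, which pair in the heterotrimeric motor, differed by 0.07 each, with 95% intervals of -0.09 to 0.24 and -0.06 to 0.20. Kif5b (chromosome 18, 6201002 to 6242174), the heavy chain of conventional kinesin, had 259, 270 and 283 CPM with irinotecan, against 266, 287 and 296 CPM with DMSO, and its groups overlapped (95% interval of the log2 fold change -0.17 to 0.04).

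Per length, the median mitotic kinesin stood at a higher level than the median of the others. The deposited FPKM, a count scaled by gene length and by library size, had a median over the 12 mitotic kinesins of 18.2 with irinotecan and 16.1 with DMSO. Over the 16 others it was 8.75 with irinotecan and 7.77 with DMSO, and the median over all genes tested was 7.67. Kif20a was the most abundant kinesin at 46.6 ± 0.979 FPKM with irinotecan and 35.6 ± 0.241 FPKM with DMSO (SD, n = 3 each). In the mean of all 6 libraries Kif1c, Kifc1 and Kif5b followed, and the DMSO levels of Kif20a and Kif5b (35 ± 1.95 FPKM) differed by less than the spread of Kif5b. A group of mitotic kinesins, Kif23, Kif2c, Kif22, Kif18b, Kif4 and Kif11, stood close together, between 17.3 and 19.9 FPKM with irinotecan and between 15.4 and 18.4 FPKM with DMSO. The lowest were Stard9 at 1.32 ± 0.0439 FPKM with irinotecan and 0.941 ± 0.109 FPKM with DMSO, and Kif24 at 1.62 ± 0.392 FPKM with irinotecan and 1.13 ± 0.136 FPKM with DMSO. The kinesins that rose thus included the most and the least abundant ones. Their genes spanned 8.67 to 131 kb (median 36.4 kb), and those of the 16 that did not pass 14.7 to 284 kb (median 62.1 kb).

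**Figure D4:**
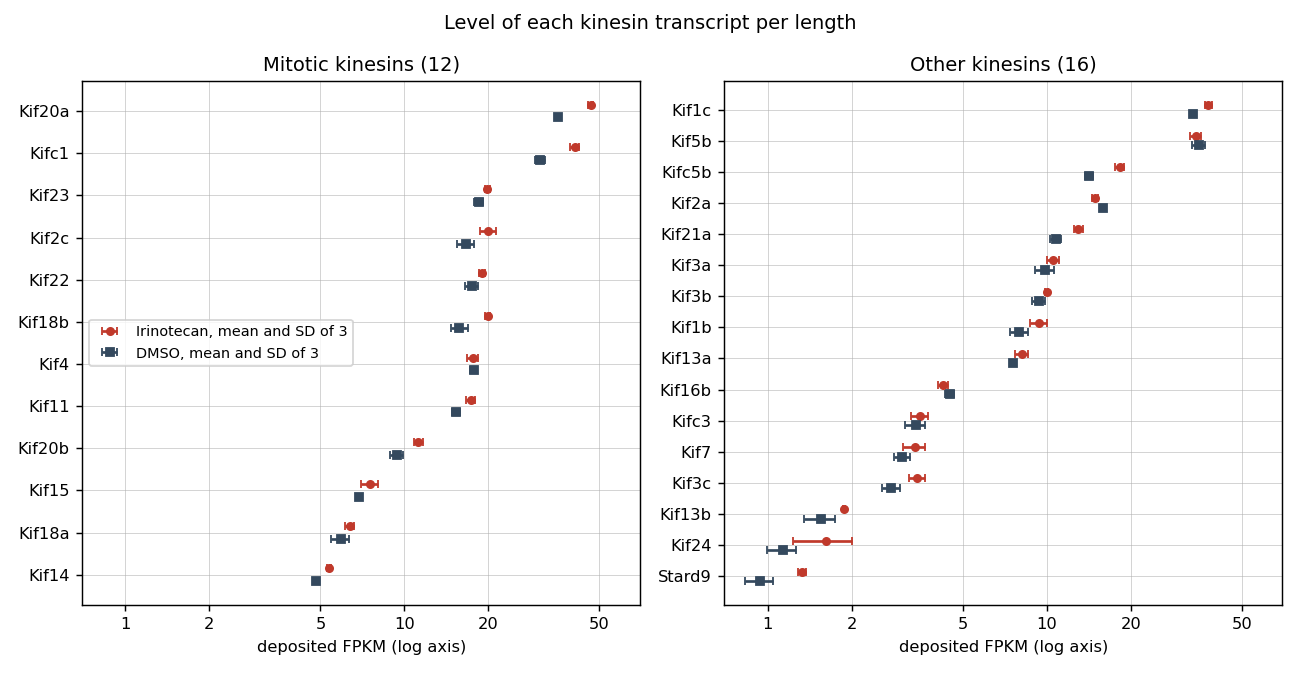
Deposited FPKM of each kinesin on a log axis, as mean and SD of 3 libraries, irinotecan as red circles above DMSO as dark squares, ordered by level. Mitotic kinesins (left) range from Kif14 at 5.38 FPKM to Kif20a at 46.6 FPKM with irinotecan, and the others (right) from Stard9 at 1.32 to Kif1c at 37.9.

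The authors' deposited table calls 11 of the 28 kinesins at an adjusted p of at most 0.05, all higher with irinotecan, and these 11 are among the 12 called here. Over the 11604 genes of the authors' deposited table, the same threshold calls 9.78% higher and 9.45% lower with irinotecan. Its log2 fold change runs as DMSO over irinotecan, so the sign was read against the counts.

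Of 28 spindle and cytokinesis partners tested, 9 rose, 1 fell and the median was 0.11 on the log2 scale, and the irinotecan libraries were above the DMSO libraries without overlap in 14. Of all genes tested, 11.8% rose, 10.3% fell and 19.3% lay above without overlap. The partner lists, too, were chosen with earlier results of these data known. Ckap2, a spindle microtubule nucleator, was at 178 ± 1.89 CPM with irinotecan and 101 ± 4.89 CPM with DMSO (SD, n = 3 each), or 0.83 ± 0.051 on the log2 scale (SE, edgeR adjusted p = 2.5e-10). Nusap1, which bundles spindle microtubules, rose by 0.40 ± 0.065. Incenp, the scaffold of the passenger complex that Kif20a carries, fell by 0.17 on the log2 scale (adjusted p = 0.015). It no longer passed once DMSO replicate 2 (0.065) or irinotecan replicate 1 (0.077) or 3 (0.051) was left out. Of 13 tubulins, among them those that form the track of the kinesins, 7 rose and 0 fell (median 0.24). Tuba1a was at 231 ± 16.2 CPM with irinotecan and 171 ± 6.37 CPM with DMSO, and Tubb2a rose by 0.49 ± 0.083. The alpha and beta tubulin genes are alike in their coding parts and uncertain one by one, though their shared words were not counted. Without irinotecan replicate 1, 3 tubulins rose. Tubb3, which is also a neuronal marker, rose by 0.57 ± 0.14 (adjusted p = 0.0047, and 0.056 without irinotecan replicate 1). The 4 neuronal markers with a row summed to 269 to 294 CPM with irinotecan and 334 to 380 CPM with DMSO. Of these 4, 1 was called higher, Tubb3 itself, and 1 was called lower.

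Cargo adaptors (9.09%) and the opposite motor (12%) were called higher at shares near that of all genes tested (11.8%). Called lower were 4.5% and 4%, below the 10.3% of all genes tested. Of 22 kinesin light chains and cargo adaptors tested, 2 rose and 1 fell (median -0.00). Klc4, a kinesin light chain, stood at 10.1 ± 1.4 CPM with irinotecan and 7.5 ± 0.497 CPM with DMSO (SD, n = 3 each), a rise of 0.43 on the log2 scale (edgeR adjusted p = 0.029). Arl8a, the small GTPase that couples lysosomes to kinesin, rose by 0.20 ± 0.063, and its effector Plekhm2 fell by 0.22. Each of these calls was lost without some libraries: for Klc4 either of DMSO replicates 2 and 3, irinotecan replicate 1, and also under DESeq2 (0.054 to 0.19); for Arl8a either of DMSO replicates 1 and 3 and each irinotecan replicate (0.051 to 0.11); for Plekhm2 replicate 1 or 2 of either group (0.051 to 0.1). Of 25 genes of cytoplasmic dynein and dynactin, the minus-end motor, 3 rose and 1 fell (median 0.04). Dync1h1, the heavy chain, was at 510 ± 5.7 CPM with irinotecan and 453 ± 17.1 CPM with DMSO (adjusted p = 0.01, and 0.072 without DMSO replicate 1), and Dync1i2, an intermediate chain, rose by 0.19 ± 0.05. Dync1li2, a light intermediate chain, fell by 0.18, and did not pass when either of DMSO replicates 2 and 3 or of irinotecan replicates 1 and 2 was left out, or with total counts alone (0.069 to 0.17). Of 19 microtubule regulators, 2 rose and 2 fell (10.5% each, median 0.04). Mapre2, an end-binding protein, rose by 0.45 ± 0.078 and Map1a by 0.35 ± 0.071. Map1b fell by 0.33 and Map7d1, of the family that recruits conventional kinesin to microtubules, by 0.17. Both calls were lost with total counts alone (0.073 for Map1b and 0.064 for Map7d1) and without DMSO replicate 2 (0.19 and 0.21). That of Map1b was also lost without DMSO replicate 3 (0.12) or irinotecan replicate 2 (0.088). That of Map7d1 was also lost without irinotecan replicate 1 (0.11), 2 (0.073) or 3 (0.057).

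**Figure D5:**
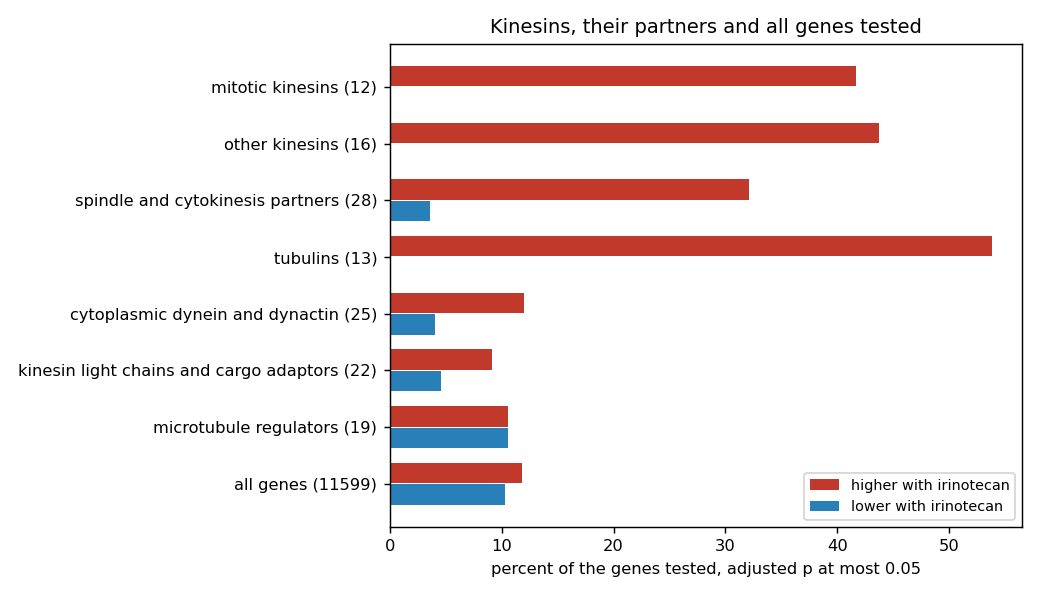
Share of each list higher (red) or lower (blue) with irinotecan at an adjusted p of at most 0.05, with the number of genes tested in parentheses and all genes tested at the bottom. Mitotic kinesins (41.7%), other kinesins (43.8%), tubulins (53.8%) and spindle partners (32.1%) have longer red bars than all genes (11.8%), while dynein and dynactin genes (12%), cargo adaptors (9.09%) and microtubule regulators (10.5%) lie near it.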

How the data were processed

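RNA of 6 CT26 samples was sequenced, 3 with irinotecan and 3 with DMSO, grouped by title; the series design speaks of duplicates, and all 6 libraries were used. The submitters' processing notes name GRCm39, HISAT2 2.1.0 and fastp 0.19.3, then featureCounts 1.6.2 and StringTie 1.3.4d, and the test packages edgeR 3.24.3 and DESeq2 1.22.1, without their roles. The authors deposited whole-number counts, unnormalized, and FPKM values for 11604 genes, together with their own p-values, adjusted p-values and log2 fold changes. The lowest count of any listed gene in a library was 1. Coordinates of genes are those of the table on GRCm39; promoters and their coordinates are RefSeq's on GRCm38.p6, and transcripts for word sharing are GENCODE M21.

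The test was edgeR 4.0.16 under R 4.3.3: filterByExpr kept 11599 genes, and TMM, robust glmQLFit and glmQLFTest followed, with p-values adjusted by Benjamini-Hochberg over all of them. The SE is the fitted change over the root of F, and 95% intervals use its t distribution. CPM are TMM-normalized. The total of 16052326 to 17294496 counts per library and the 3 libraries per group set the precision. The fit was run on simulated data with known changes in 200 genes. That is far fewer than the genes called here, so the simulation gives no error rate for these calls. The alternatives were DESeq2 1.42.0, limma-voom (limma 3.58.1), other scalings and filters, the replicate number as a block, and leaving out each library. Members and lists were chosen with earlier results of these data known. Genes were named by a rule, which took every kinesin member. Of each partner list it took up to 2 higher and 2 lower members past the threshold with the smallest p. Per-library values of kinesins that did not pass, other than Kif11, and Cenpe, Tubb3 and the overlapping genes were added after their values were seen.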

Additional observations from a re-analysis of the deposited data

How the results depend on the processing

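Of 391 recomputed values for single kinesins, 363 kept their direction and their side of the threshold, 18 lost a call and 8 gained one; Kifc3 changed sign without DMSO replicate 3 (-0.047) and without irinotecan replicate 1 (-0.02), with a range of -0.047 to 0.078 over the 6 libraries left out. Of the 12 kinesins called, Kif20a, Kifc1, Kifc5b, Kif18b, Kif21a and Stard9 passed under all 13 alternatives.

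Leaving out 1 library at a time gave these ranges of calls. Over all genes 804 to 1211 were higher and 589 to 1151 lower. Mitotic kinesins higher were 3 to 5 and others 4 to 6. Spindle partners lower were 0 to 1, cargo adaptors 0 to 1 higher and 0 to 1 lower, dynein genes 1 to 2 higher and 0 to 1 lower, tubulins higher 3 to 7, and microtubule regulators lower 0 to 2. The median log2 fold change ranged over 0.13 to 0.16 for mitotic and 0.12 to 0.14 for other kinesins. With total counts as the only scaling the median of all genes moved by 0.03, the medians of both kinds of kinesin were 0.16, 66.1% of all calls were higher against 53.5%, and 0 dynein genes and 0 microtubule regulators were lower. With DESeq2, 1 cargo adaptor was higher. The causes were not tested.

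The replicate numbers were not taken to pair the samples: deviations of same-numbered libraries correlated at 0.12, 0.04 and 0.09 across genes, although each library correlated best with its own number. With the replicate block 3628 genes were called, 1820 of them lower, and 14 kinesins were higher, with Kif11 and Kif13b added, and 1 was lower (Kif2a). Cargo adaptors higher were then 4 and dynein genes lower 3.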
